A study of Haemaphysalis flava with 2 samples.

Results

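Metallopeptidases are protein-cutting enzymes that hold a metal ion, usually zinc, in the active site. In the expression table of the tick midgut, 113 of 65535 unigenes (assembled transcripts or transcript fragments) carried a protein description of this class, taken by words such as metalloprotease, astacin, neprilysin, endothelin-converting, carboxypeptidase A and aminopeptidase N. The Nr description placed 109 of them and the UniProt description the other 4. The samples were midguts of the hard tick Haemaphysalis flava at 2 points of the blood meal, FE (fully engorged) and PE (partially engorged), each represented by 1 library of polyadenylated RNA. Dissection covered 30 midguts of each state, no strain, age, time or treatment is given in the labels, and the sources used here do not say how many guts each library pooled. With so few libraries no difference below has a replicate check, no test between states was run, and intervals cover counting error only.

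The tick midgut breaks down blood proteins mostly inside its cells at acid pH, where cathepsins and legumain cut first and exopeptidases trim the fragments. Metallopeptidases act at several other points. Zinc carboxypeptidases (family M14) and aminopeptidase N (family M1) remove single residues from the ends of peptides. Astacins (M12A), ADAM proteases and reprolysins (M12B) and matrix metalloproteinases (M10) cut secreted, surface and matrix proteins. Neprilysins and endothelin-converting enzymes (M13) and angiotensin-converting enzyme (M2) cut short signaling peptides at the cell surface, and the AAA proteases YME1 and FtsH remove damaged proteins inside mitochondria.

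Levels are in RPKM, reads per kilobase of unigene scaled to the read total of the library, so they are per length. The call higher (or lower) in FE required that log2 of (FE RPKM + 1)/(PE RPKM + 1) be at least 1 (or at most -1), that the 95% exact interval of the ratio of counts exclude 1, and that the unigene reach 1 RPKM in a library. Of the 113 members, 64 reached that level, 27 in both libraries, 31 in FE alone and 6 in PE alone. The other 49 stayed below 1 RPKM in both, and are included in the counts without a filter given below. Among the 64, 27 were higher in FE, 13 lower and 24 neither, which is 42.2% higher and 20.3% lower. Over all 44982 unigenes that reached 1 RPKM, 25.7% were higher and 11.1% lower (36.8% in either direction), and over the 18815 of these with a description 30.7% and 9.4% (40.1% in either direction). Because a scarce member often passed only through the library where it stood higher, these counts describe the members that passed and not the class. Without any filter, the interval of the ratio lay above 1 (higher in FE) for 66 of 113 members and below 1 for 23, that is 58.4% and 20.4%. Over all 65535 unigenes the same rule gave 43.3% and 22%, and over the 22972 with a description 55.9% and 21.1%, close to the shares of the members. The median log2 ratio of the 64 was 0.62 against 0.36 over all unigenes that passed. A TMM factor, which scales by the bulk of unigenes, moved log2 ratios by 0.39 towards PE. With it 75 of 113 members had the higher value in FE, 66.4% against 50.4% of all unigenes and 57.5% of those with a description. The RPKM values gave 82 members, 72.6% against 61.7% of all unigenes and 69.1% of those with a description.

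**Figure D1:**
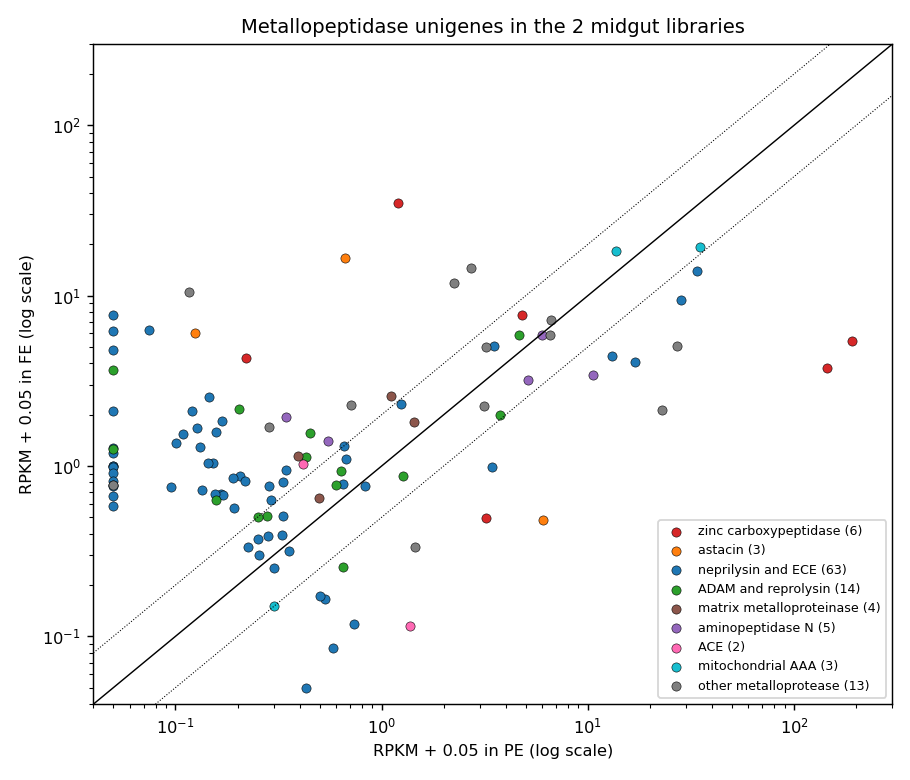
RPKM + 0.05 of each of the 113 members in PE (horizontal, log scale) and FE (vertical, log scale), coloured by family with the number of members. The solid line marks equal levels and the dotted lines a 2-fold difference. Carboxypeptidase A2 unigenes lie at both extremes (191 RPKM in PE against 5.38 in FE, and 34.8 in FE against 1.15 in PE), and a column of 18 members with no read in PE stands at the left edge.

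Zinc carboxypeptidases held the most abundant members and the widest spread of ratios. First_Contig2003, described as a carboxypeptidase A2 precursor, had 236 reads in FE (5.38 RPKM) and 10209 in PE (191 RPKM), an excess of 35.6-fold in PE (95% counting interval 31.3 to 40.6). Contig16613, described in UniProt as carboxypeptidase A2, had 3.71 RPKM in FE and 144 in the PE library, an excess of 38.7-fold in PE (29.9 to 51.2). Another unigene of this description, Contig17053, went the other way, with 2097 reads in FE (34.8 RPKM) and 84 in PE (1.15 RPKM), an excess of 30.4-fold in FE (24.4 to 38.2). Carboxypeptidase A2 removes C-terminal residues with bulky side chains in mammals, where it is a pancreatic enzyme. The midgut in PE therefore held mainly First_Contig2003 and Contig16613 RNA for this description, and the midgut in FE mainly Contig17053 RNA.

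First_Contig2003 and Contig17053 are not adjoining pieces of 1 transcript by their position on the hit. Both had the same best Nr hit, an Ixodes scapularis protein of 386 residues, and their alignments shared 297 residues of it, at 28.5% and 32.6% identity. Contig16613 is short, 377 nucleotides, and aligned to residues 11 to 111 of a UniProt protein of 439 residues. Whether it is the missing end of First_Contig2003 cannot be read from these files, since their best UniProt hits share a description but differ in length (439 and 406 residues). First_Contig2003 and Contig16613 made up 53.5% of the summed RPKM of all members in PE and 2.70% in FE. The sum over all 113 members was 337 RPKM in FE and 626 in PE, but without these 2 unigenes it was 328 in FE and 291 in PE, so with the RPKM values the direction of the summed level rests on them. With a TMM factor it did not: the ratio of FE over PE was 0.410 with them and 0.858 without.

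The other 3 zinc carboxypeptidases were described as zinc carboxypeptidase A 1-like and shared 1 hit, an acorn worm protein of 365 residues. They split as well. Contig45446 had 103 reads in FE (4.24 RPKM) and 5 in PE (0.169 RPKM), an excess of 25.1-fold in FE (10.4 to 78.8). Contig42888 had 0.444 RPKM in FE and 3.15 in the PE library, an excess of 7.10-fold in PE (3.79 to 14.7). Contig9364 was called neither, at 7.67 and 4.72 RPKM. All 3 aligned only to the last part of the protein, from residue 280 or 283 to 359, and their UniProt hit was an uncharacterized protein of 431 residues, so the name rests on a short stretch. Over the 6 zinc carboxypeptidases 2 were higher in FE, 3 lower and 1 neither, with the same calls under a TMM factor. With the RPKM values, 25.7% of all unigenes that passed were higher and 11.1% lower.

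**Figure D2:**
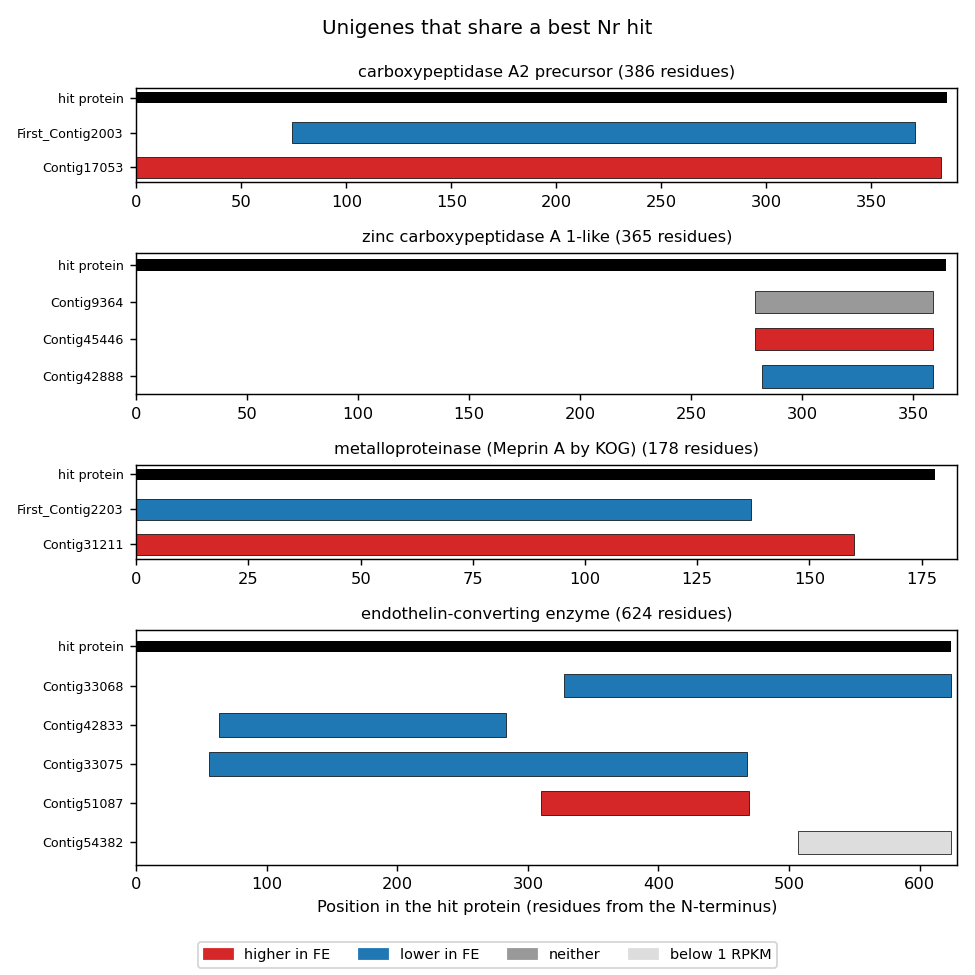
Position of the aligned stretch (horizontal, residues from the N-terminus) of unigenes that share a best Nr hit, for 4 hit proteins of 386, 365, 178 and 624 residues drawn as black bars. Red bars were higher in FE, blue lower, dark grey neither and light grey below 1 RPKM. The 4 drawn are the only ones of 17 shared hit proteins with unigenes called in both directions. In each of the 4 a unigene higher in FE overlaps a unigene lower in FE.

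Aminopeptidase N removes residues from the N-terminus of peptides at the surface of gut cells in many animals. The 5 members gave 1 higher, 1 lower and 3 neither, where 25.7% of all unigenes that passed were higher and 11.1% lower. The descriptions were not equally firm. Contig24395 and Contig46189 aligned over nearly the whole of insect aminopeptidases (residues 102 to 981 of 986, and 96 to 976 of 981), and their KOG hits were puromycin-sensitive aminopeptidase and its relatives. Contig24395 had 3.13 RPKM in FE and 5.06 in PE, an excess of 1.61-fold in PE (1.47 to 1.77), and was called neither. Contig46189 had 243 reads in FE (1.89 RPKM) and 46 in PE (0.294 RPKM), an excess of 6.43-fold in FE (4.67 to 9.01), which a TMM factor moved to neither. The other 3, Contig22907, Contig24073 and Contig23333, hit 1 sea urchin protein named aminopeptidase N-like, while UniProt described 2 of them as an endonuclease and reverse transcriptase and 1 as a tick transposon. Of these Contig22907 was 3.14-fold higher in PE (2.61 to 3.78), at 3.35 and 10.5 RPKM, and is the member called lower. The only lower call of this family thus rests on a unigene whose UniProt hit names another protein.

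Astacins are secreted or membrane-bound endopeptidases that take part in digestion in crustaceans and in the processing of matrix and growth factors in other animals. The description alone placed 3 members here, and all 3 differed by more than 2-fold. Contig7888, nas-15-like, had 1040 reads in FE (16.5 RPKM) and 47 in PE (0.614 RPKM). Contig36906, described as a meprin A metalloprotease, had 402 reads in FE (6.0 RPKM) and 6 in PE (0.0737 RPKM), an excess of 81.5-fold in FE (37.1 to 223). Contig54849, of the same description, had 6 reads in FE (0.432 RPKM) and 101 in PE (5.98 RPKM), an excess of 13.8-fold in PE (6.14 to 38.6). In these 2 libraries the nas-15-like unigene and Contig36906 had nearly all their reads in FE, and Contig54849 in PE.

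A further 4 unigenes described only as metalloproteinase had Meprin A metalloprotease as their best KOG hit, which is the astacin family. First_Contig2203 had 239 reads in FE (5.0 RPKM) and 1571 in PE (27.0 RPKM), an excess of 5.40-fold in PE (4.71 to 6.22). Contig31211 had 736 reads in FE (14.6 RPKM) and 163 in PE (2.65 RPKM), an excess of 5.49-fold in FE (4.63 to 6.55). These unigenes share an Ixodes scapularis hit of 178 residues, overlap over 137 of them, and aligned at 35.1% and 65.0% identity, so as in the carboxypeptidases 2 sequences under 1 name stood at nearly equal and opposite ratios. Contig11233, of 3719 nucleotides, had 319 reads in FE (2.07 RPKM) and 4259 in PE (22.7 RPKM). Contig41499 had 2.23 and 0.664 RPKM and missed the size rule on the log2(RPKM + 1) scale. By description or KOG hit together, a grouping made after the values were seen, 7 astacins gave 3 higher, 3 lower and 1 neither. The shares over all unigenes that passed were 25.7% higher and 11.1% lower. The summed level of the 7 was 46.8 RPKM in FE and 59.7 in PE.

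**Figure D3:**
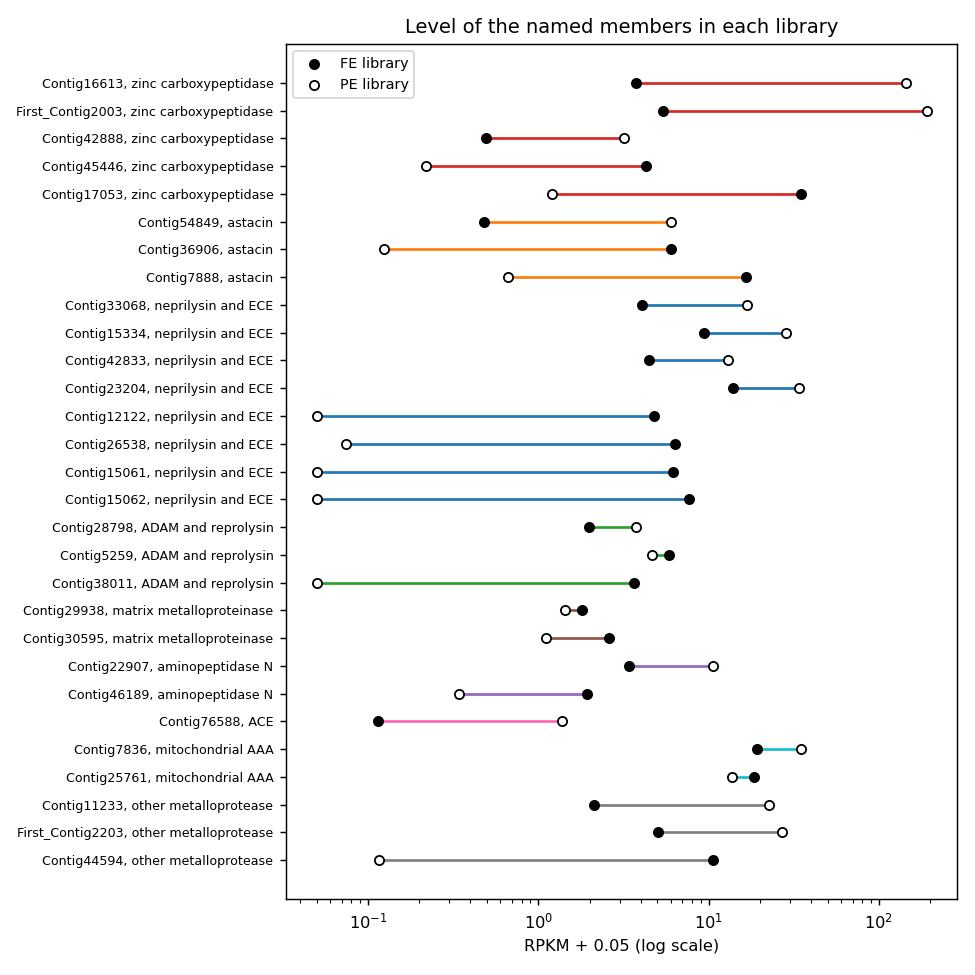
RPKM + 0.05 (log scale) of 29 named members in the FE library (filled circles) and the PE library (open circles), joined by a line coloured by family. Carboxypeptidases and astacins hold both long lines to the right in PE and long lines to the right in FE, whereas the 4 most abundant M13 unigenes lie higher in PE and the 4 with the most extreme ratios are higher in FE.

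Neprilysins and endothelin-converting enzymes were the largest family, 63 of the 113 members, and a KOG hit to M13 peptidases backed the description of 53 of them. Neprilysin cuts neuropeptides and other short peptides outside the cell, and endothelin-converting enzyme makes the vessel hormone endothelin from its precursor in mammals. Most were fragments. The median length was 497 nucleotides, 45 of 63 were under 600, and the alignment covered under 50% of the hit protein in 50 of them. The 63 unigenes had 41 different hit proteins, and several may be pieces of 1 transcript, so the number of unigenes is not a number of genes.

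Contig23204, the most abundant, had 400 reads in FE (13.8 RPKM) and 1194 in PE (33.9 RPKM), an excess of 2.45-fold in PE (2.19 to 2.76). Contig15334 had 605 reads in FE (9.39 RPKM) and 2223 in PE (28.4 RPKM), an excess of 3.02-fold in PE (2.76 to 3.31). Contig33068, Contig42833 and Contig33075 shared 1 hit, an Ixodes scapularis endothelin-converting enzyme of 624 residues, and were all higher in PE. Contig33068 had 4.01 and 16.8 RPKM, 4.19-fold (3.66 to 4.82). Contig42833 had 4.40 and 13 RPKM, 2.96-fold (2.57 to 3.43). Contig33068 (residues 329 to 624) and Contig42833 (64 to 283) do not overlap on that protein, so they may belong to 1 transcript, whereas Contig33075 overlaps both. These 5 unigenes were the only M13 members called lower in FE, and their RPKM values summed to 32.6 in FE and 95.5 in PE.

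Contig33075, the scarcest of the 5, had 0.936 and 3.37 RPKM. Of the 24 M13 members that passed the filter, 15 were higher in FE and 5 lower. All unigenes that passed gave 25.7% higher and 11.1% lower. The 15 M13 members called higher in FE (10 with a TMM factor, which kept all 5 lower calls) lay between 1.15 and 7.66 RPKM in FE and between 0 and 0.118 in PE. They thus passed through FE alone. Their median length was 519 nucleotides, against 1323 for the 5 called lower. None had more than 4 reads in PE, and 6 had none. Contig15062, a partial neprilysin, had 118 reads (7.66 RPKM) in FE and 0 reads in PE, at least 47.8-fold higher in FE against a floor of 3 reads. Contig15061 had 95 reads (6.16 RPKM) in FE and 0 in PE, at least 38.5-fold higher. These 2 unigenes are both 372 nucleotides long and aligned to the same residues, 315 to 434, of the same protein, so the counting could have split reads between near-identical copies. Contig26538, neprilysin-2, had 212 reads in FE (6.26 RPKM) and 1 in PE (0.0243 RPKM), which gives a ratio of 258 (45.8 to 10233). Contig12122, endothelin-converting enzyme 1-like, had 70 reads (4.76 RPKM) in FE and 0 in PE, at least 28.4-fold higher. Their PE levels were at or under the limit of detection at this depth, not shown to be absent.

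Contig51087 joins both patterns. It shares the hit of 624 residues with Contig33068 and Contig33075 and overlaps them by 141 and 158 residues, but had 41 reads (2.06 RPKM) in FE and 0 in PE, at least 16.6-fold higher in FE. Its identity to that hit was 30.1%, against 52.8% for Contig33068, and its UniProt hit was neprilysin-1. The remaining M13 members were 4 called neither and 39 below 1 RPKM, of which 31 had the higher value in FE. Without a filter the interval lay above 1 for 40 of the 63 and below 1 for 8, 63.5% and 12.7%. The same rule gave 43.3% and 22% over all unigenes, and 55.9% and 21.1% over those with a description. With a TMM factor the interval lay above 1 for 34 of the 63 and below 1 for 11, 54% and 17.5%. All unigenes then gave 33.1% and 31.6%, and those with a description 43.9% and 30.9%. Among the 4 called neither, Contig12324 was described as endothelin-converting enzyme 2-like, but its UniProt and KOG hits were a spermine synthase. It had 5.0 and 3.46 RPKM.

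Nerve markers were taken by the words synaptotagmin, synaptobrevin, syntaxin-1, neuropeptide receptor and acetylcholine receptor. They matched 28 unigenes, of which 20 passed the filter, 12 higher in FE and none lower. All unigenes that passed gave 25.7% higher and 11.1% lower, and those with a description 30.7% and 9.4%. Most of the 12 passed through FE alone, so these counts describe the unigenes that passed. The words also caught syntaxin-18, extended synaptotagmin and synaptotagmin-like proteins, which are not specific to synapses. Without these 6 unigenes, a choice made after seeing the data, 17 passed, 11 higher and none lower (7 and none with a TMM factor), and their RPKM values summed to 170 in FE and 97.9 in PE. By word, the synaptobrevins summed to 119 and 85.9 RPKM and were not called, and the acetylcholine receptors to 27.5 and 5.28. The synaptotagmins summed to 26.3 and 25.1, still counting the left-out Contig13626 (10.5 in FE and 17.5 in PE) and First_Contig1295 (3.65 and 4.48). These 2 were called neither, while 5 other synaptotagmins were called higher in FE and none lower. The word syntaxin-1 summed to 42.4 and 13.8 with the left-out syntaxin-18 unigenes counted. In bulk tissue fewer cells of a type and less RNA per cell cannot be told apart, and the part of nerve tissue in the M13 result was not tested.

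**Figure D4:**
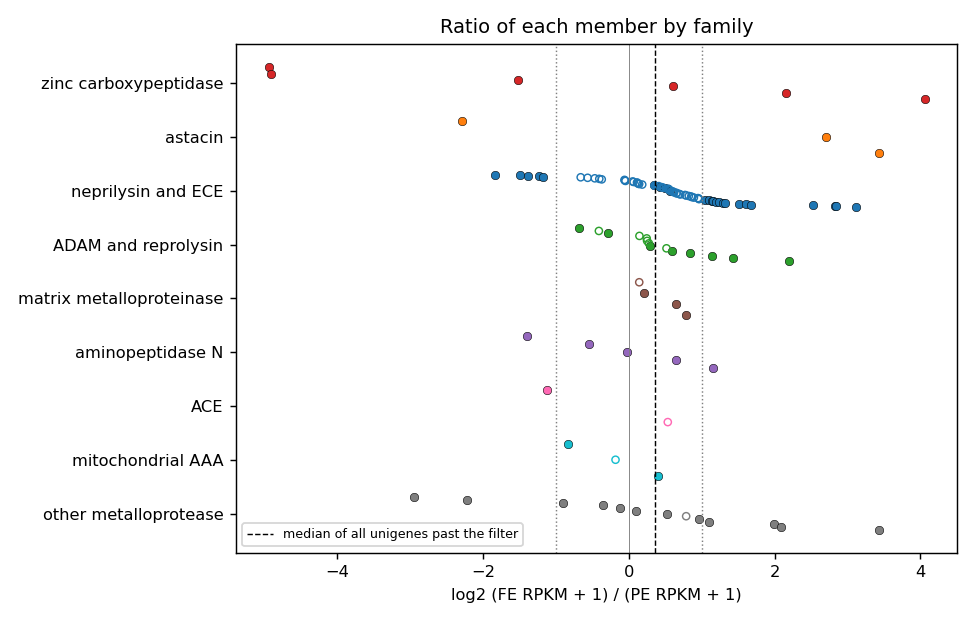
Log2 of (FE RPKM + 1)/(PE RPKM + 1) of each member (horizontal) by family. Filled circles reached 1 RPKM in a library, open circles did not. Dotted lines mark the size rule at -1 and 1, and the dashed line the median of all unigenes that passed, 0.36. Zinc carboxypeptidases run from -4.94 to 4.06, M13 members that passed from -1.83 to 3.11, and the matrix metalloproteinases that passed lie between 0.21 and 0.78.

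Angiotensin-converting enzyme trims dipeptides from the C-terminus of peptide hormones in mammals. Both members were scarce. Contig76588 had 1 read in FE (0.0645 RPKM) and 25 in PE (1.33 RPKM), which gives a ratio of 20.6 in favour of PE (3.36 to 844). Contig47234 had 33 reads in FE (0.980 RPKM) and 15 in PE (0.366 RPKM) and stayed below the filter. The 2 unigenes pointed in opposite directions, and the first rests on few reads.

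ADAM proteases shed the outer parts of membrane proteins, ADAMTS proteases cut matrix proteins, and reprolysin-like proteases are secreted in tick saliva. Of 14 members 8 passed the filter, 3 were higher in FE, none lower and 5 neither (2, 0 and 4 with a TMM factor). Of all unigenes that passed, 25.7% were higher and 11.1% lower. The 3 higher calls passed through FE alone. Without a filter the interval lay above 1 for 7 of the 14 and below 1 for 2, 50% and 14.3%. All unigenes gave 43.3% and 22%, and those with a description 55.9% and 21.1%. With a TMM factor the family gave 35.7% and 21.4%, all unigenes 33.1% and 31.6%, and those with a description 43.9% and 30.9%. Contig5259, a disintegrin-metalloprotease whose 6477 nucleotides aligned to residues 9 to 750 of a protein of 751, was nearly level at 1566 reads in FE (5.84 RPKM) and 1503 in PE (4.60 RPKM). Its KOG hit was the ADAM17 group of sheddases. Contig28798, described as ADAMTS 9, had 1.94 and 3.70 RPKM, called neither. Contig9171, described only as a metalloprotease and with the same ADAM17 KOG group, had 7.12 and 6.58 RPKM. The 3 differed by less than 2-fold between the libraries.

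Of the 3 members higher in FE, Contig47298 shares the hit of Contig5259, overlapping it by 123 residues at 42.7% identity. It had 20 reads in FE (1.20 RPKM) and 0 in PE, at least 8.11-fold higher in FE, and fell below the filter with a TMM factor. The other members called, Contig38011 and Contig14604, were described as salivary gland metalloprotease and shared a hit of 470 residues. Contig38011 had 142 reads (3.58 RPKM) in FE and 0 in PE, at least 57.6-fold higher in FE. Contig14604 had 91 reads in FE (2.12 RPKM) and 8 in PE (0.153 RPKM), 13.8-fold higher (6.73 to 33.0). Outside this family, Contig44594, described in UniProt as tick metalloprotease 41 and without an Nr hit, had 261 reads in FE (10.5 RPKM) and 2 in PE (0.0661 RPKM), which gives a ratio of 159 (43.5 to 1318).

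Salivary gland markers were sparse. Of the words searched, evasin, histamine-binding, salp15, ixodegrin, basic tail and japanin matched no description, while cement and glycine-rich proteins matched 6 unigenes. Of these 4 passed the filter, 2 stood higher in FE, none lower. The cement proteins summed to 3.78 RPKM in FE and 0.229 in PE, and the glycine-rich proteins to 72.5 and 51.5, the latter mostly from 1 unigene (Contig14388) called neither. The part of salivary tissue in the values of Contig38011, Contig14604 and Contig44594 was not tested. Midgut markers were abundant in both libraries and differed in direction. Cathepsin B summed to 573 RPKM in FE and 846 in PE, cathepsin C to 133 and 219, cathepsin L to 127 and 214 and legumain to 215 and 396. The cathepsin C sum leaves out 2 dipeptidyl peptidase 1-like unigenes that UniProt named cathepsin C. These were Contig3659 (227 RPKM in FE and 421 in PE) and Contig5953 (136 and 197). Contig16937 (54.9 and 66.0), counted under cathepsin L, was also cathepsin C by UniProt. Cathepsin D summed to 211 and 70.6, peritrophic membrane chitin binding proteins to 53.0 and 786, and longipain to 79.5 in FE with no read in PE. The legumain sum includes Contig4051 and Contig4052, named tick salivary legumain by UniProt, with 19.9 and 19.6 RPKM in FE and 0 and 0.0352 in PE. Muscle markers summed to 3371 RPKM in FE and 3765 in PE once 5 non-muscle myosins that the words had caught (229 and 695 RPKM) were left out, with 7 of 45 that passed higher and none lower. Of all unigenes that passed the filter, 25.7% were higher in FE and 11.1% lower. No description matched the host blood proteins searched.

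Matrix metalloproteinases cut collagens and other matrix proteins. All 4 members had the higher RPKM in FE and none was called. Contig30595 aligned over residues 1 to 548 of 550 of an Ixodes scapularis protein at 81.1% identity and had 253 reads in FE (2.53 RPKM) and 128 in PE (1.05 RPKM), an excess of 2.40-fold in FE (1.94 to 3.0) but short of the size rule after adding 1. Contig29938 had 1.76 and 1.39 RPKM. With a TMM factor 3 of the 4 had the higher value in FE. The family summed to 5.99 RPKM in FE and 3.23 in PE.

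Mitochondrial AAA proteases had 2 members that passed. Contig7836, the YME1 homolog, stood at 1755 reads in FE and 3887 in PE, an excess of 1.82-fold in PE (1.72 to 1.93), and was called neither with the authors' RPKM and lower in FE with a TMM factor. Contig25761 had 18.3 and 13.6 RPKM, an excess of 1.34-fold in FE (1.19 to 1.52). UniProt described it as FtsH, but the alignment covered only residues 2 to 101 of 764 and Nr gave no hit. Among the other metalloproteases, Contig1656 had 5.85 and 6.47 RPKM, and Contig32774, described as an endoplasmic reticulum metallopeptidase, 4.98 and 3.16. The name pitrilysin of Contig1656 came from UniProt alone and rests on residues 980 to 1006 of a protein of 1006. Contig32070, an inducible metalloproteinase by Nr, was 5.35-fold higher in FE (3.82 to 7.63) at 11.8 and 2.2 RPKM, but UniProt named it tick TIL 17, after a domain of protease inhibitors. Contig7836, Contig25761, Contig1656 and Contig32774 differed by less than 2-fold.

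Among the members that passed the filter, the calls differed by level, but below 10 RPKM they depended on the filter. Where the higher of the 2 values was at least 10 RPKM, 9 of 16 members were lower in FE, 5 higher and 2 neither, while all unigenes at that level were 34.5% higher and 14.4% lower (48.9% in either direction). Between 1 and 2 RPKM 11 of 21 members were higher and 1 lower, and all unigenes there were 14% higher and 5.88% lower (19.9% in either direction). These 11 passed the filter through FE alone, with at most 0.294 RPKM in PE (Contig46189). All 8 higher calls that a TMM factor removed were among them. Every other call below 10 RPKM, higher or lower, also passed through 1 library alone, the one where the member stood higher. The shares and medians below 10 RPKM therefore describe members that passed and not the class. The median log2 ratio of the members was -1.31 in the first class and 1.05 in the second, against 0.47 and 0.28 for all unigenes. Between 2 and 5 RPKM the median was 0.87 (7 higher, 2 lower, 7 neither), where 22.8% of all unigenes were higher and 11% lower (33.7% in either direction). Members of 5 to 10 RPKM were at 0.29 (4 higher, 1 lower, 6 neither), where 28.3% of all unigenes were higher and 11.8% lower (40.1% in either direction).

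**Figure D5:**
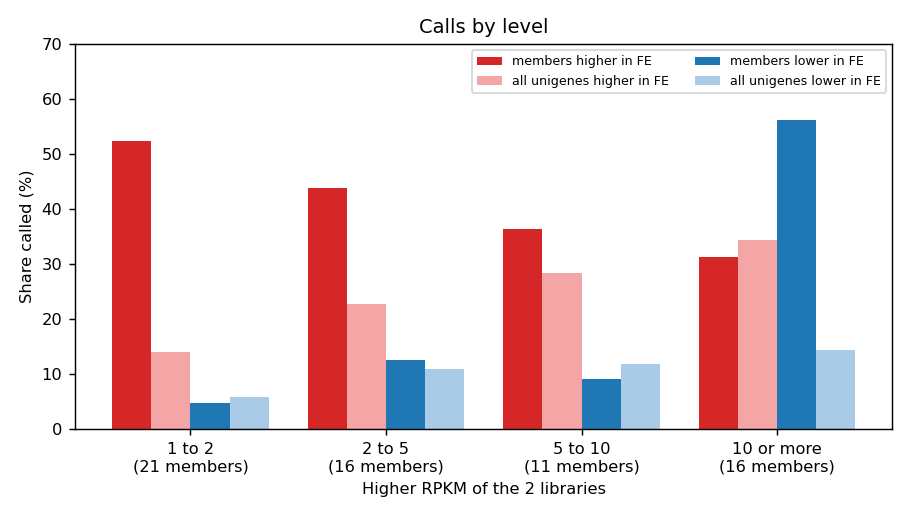
Share of members and of all unigenes called higher or lower in FE (vertical, percent), by the higher RPKM of the 2 libraries (horizontal). Members of 10 RPKM or more were mostly lower in FE (9 of 16), and those of 1 to 2 RPKM mostly higher or neither (11 and 9 of 21). The 11 passed the filter through FE alone, as did every other higher call below 10 RPKM. The 8 higher calls that a TMM factor removed were among the 11.

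Among members that share a hit protein, 12 pairs had both unigenes called. In 6 pairs they went the same way and in 6 opposite ways, the opposite pairs being those of carboxypeptidase A2, zinc carboxypeptidase A 1-like, the metalloproteinase of 178 residues, and Contig51087 with 3 endothelin-converting enzymes. Of these 6, 5 overlap on the hit protein and 1 (Contig42833 with Contig51087) does not. In all, 17 hit proteins were shared by 52 members. Ixodes scapularis supplied the best Nr hit of 70 members, and the median identity of the alignments was 42.3%, against 50.8% over all unigenes with an Nr hit. GO terms fit the descriptions: proteolysis was attached to 104 of 107 members with any term and metalloendopeptidase activity to 92.

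Peptidases and inhibitors around the members were described by lists of their own. Over all unigenes that passed the filter 25.7% were higher in FE and 11.1% lower. Over those of them with a description the shares were 30.7% and 9.4%. Carboxypeptidase inhibitors, which block M14 enzymes in other animals including ticks, had 3 unigenes and all 3 were higher in FE. Contig168 had 866 RPKM in FE and 230 in the PE library, 3.76-fold higher (3.65 to 3.88). Contig14247 had 227 and 21.0 RPKM, 10.8-fold higher (9.72 to 12.1). Contig589 had 107 and 15.4 RPKM, 6.94-fold higher (6.13 to 7.88). These inhibitors stood higher in FE while the carboxypeptidase A2 unigenes First_Contig2003 and Contig16613 stood lower and Contig17053 higher. No description named a metalloproteinase inhibitor.

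Carboxypeptidases outside the class rule, the serine, glutamate, M and unspecified ones, had 38 unigenes, of which 28 passed, 9 higher, 6 lower and 13 neither. Of all unigenes that passed, 25.7% were higher and 11.1% lower. Contig6331, described only as a carboxypeptidase, had 151 RPKM in FE and 17 in the PE library, an excess of 8.86-fold in FE (8.30 to 9.47). Carboxypeptidase M, a membrane M14 enzyme, went both ways, but only Contig12905 was higher in PE, 7.12-fold (6.24 to 8.15). Contig12906, with 4 reads in PE, was 40.4-fold higher in FE (15.4 to 151). Contig29220, Contig12407 and Contig12904 were also higher in FE, 6.08-fold, 5.02-fold and 2.95-fold. Other aminopeptidases had 8 that passed, none higher and 1 lower, the leucine aminopeptidase Contig20381 at 27.9 and 57.9 RPKM. Methionine aminopeptidase (Contig6474), which removes the first residue of new proteins, was the most abundant at 108 and 64.6 RPKM.

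Dipeptidases and dipeptidyl peptidases had 13 that passed, 2 higher, 1 lower and 10 neither, where 25.7% of all unigenes were higher and 11.1% lower. The most abundant, dipeptidyl peptidase 1-like (Contig3659, cathepsin C by UniProt), had 227 RPKM in FE and 421 in PE and was called neither. A cytosolic non-specific dipeptidase (Contig44999) was higher in FE, at 1.41 and 0.117 RPKM. The lower unigene was a CNDP dipeptidase (Contig896), a metal-dependent enzyme that splits dipeptides in the cytosol, with 94.2 RPKM in FE and 344 in PE, an excess of 3.65-fold in PE (3.56 to 3.74). Oligopeptidases and insulysins had 6, none higher and 1 lower, thimet oligopeptidase (Contig7489) at 30.4 and 83.9 RPKM, an excess of 2.76-fold in PE (2.65 to 2.87). The insulin-degrading enzyme (Contig1310) was level at 43.0 and 41.4. Of 5 relatives of ADAM and tolloid proteases named by other words 3 stood higher in FE, none lower. ADAMTS-like protein 1 (Contig17488), the most abundant, was 2.45-fold higher (2.27 to 2.64) at 7.83 and 3.20 RPKM. ADAMTS-17 (Contig12992) was 2.58-fold higher (2.17 to 3.08) at 4.53 and 1.75 RPKM. Tolloid-like protein 1 (Contig9118) was 4.91-fold higher (4.19 to 5.77) at 3.49 and 0.712 RPKM.

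The authors' deposited table listed 8 members with a false discovery rate under 0.05, by a test the sources used here do not name. That is 12.5% of the 64 members that passed the filter, near the 11.6% of all 44982 unigenes in the authors' deposited table that passed it. The authors' deposited table gave this for 4 members lower in FE, First_Contig2003 (1.42e-44), Contig16613 (7.43e-34), First_Contig2203 (0.00168) and Contig11233 (0.00208). It also gave it, in the authors' deposited table, for 4 members higher in FE, Contig17053 (1.29e-07), Contig7888 (0.00116), Contig44594 (0.0368) and Contig31211 (0.0461). All 8 were called by the size rule, and no M13 member was among them.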

How the data were processed

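Polyadenylated RNA of FE and PE midguts was sequenced, 1 library each, from TruSeq libraries of Trizol-extracted RNA (per the labels' protocols). The submitters' processing notes name CASAVA 1.8, and assembler, aligner and counter were not given in the sources used here. The authors deposited read counts per unigene (whole numbers) and RPKM values, per the file headers. The authors also deposited a ratio of PE over FE RPKM with its p-value and false discovery rate. Percent identity and alignment score of the Nr, UniProt and KOG hits were deposited by the authors too.

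Library totals implied by counts, lengths and RPKM were 41432770 reads (FE) and 50397332 (PE), and the listed counts came to 86.8% and 87.0% of these. Exact 95% Clopper-Pearson intervals used the implied totals. A floor of 3 reads is 0.0724 RPKM in FE and 0.0595 in PE for a unigene of 1 kilobase. PCR copies of a molecule may count as separate reads, so intervals and floors cover counting error only.

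Members matched fixed words in the Nr description (in UniProt's where Nr gave none). Families and companion lists were word patterns, first match taken. Members and lists were chosen with earlier results of these data known. Named unigenes are members averaging at least 10 RPKM, the most abundant, highest and lowest of each family, and the 10 highest and 10 lowest ratios among those called. Likewise named are the most abundant and the extremes of each companion list. The choice of other unigenes followed sight of their values. The TMM factor came from edgeR 4.0.16 on the counts. The size rule was also run on simulated counts that held counting error only. Such counts carry no variation between ticks or libraries, so the simulation cannot stand in for replicates.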

Additional observations from a re-analysis of the deposited data

How the results depend on the processing

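The 27 higher, 13 lower and 24 neither calls became 19, 14 and 23 with a TMM factor, whose size was 0.39 on the log2 scale, and also after centring. A pseudocount of 5 left 9 higher, 8 lower and 47 neither, a 4-fold size rule (log2 of at least 2) 11, 5 and 48, and a filter at 5 RPKM 9, 10 and 8; with no filter 73 were neither. The relative median of 0.26 turned to -0.46 at 5 RPKM. The summed FE/PE ratio of 0.538 was 0.410 with that filter and with TMM, 0.415 centred, 0.646 by Nr alone, 0.417 with 1 unigene per Nr protein, 0.519 without AAA proteases, 0.513 without 5 members whose UniProt hit names another protein 1.13 without the 2 most abundant and 0.858 without them under TMM, the last 3 settings added after seeing the data. These 2 unigenes thus set its direction with RPKM and not with TMM; for the others the cause was not tested. Of 29 named members 8 lost their call with the pseudocount of 5 (Contig22907, Contig46189, Contig38011, Contig76588, Contig45446, Contig12122, Contig42888, Contig42833) and 8 with the 4-fold rule (5 of these and Contig23204, Contig15334, Contig33068). TMM and centring each changed 2 (Contig7836, Contig46189), and no called one changed sign in the settings run. No paired analysis was possible because each state has 1 library. Depth limits the scarce members, of which 36 had 3 reads or fewer in PE.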
